A study of Mus musculus with 15 samples.

Results

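The isocitrate dehydrogenases and D-2-hydroxyglutarate dehydrogenase are the enzymes that make, and in the mutant case divert, 2-oxoglutarate and that clear the oncometabolite D-2-hydroxyglutarate. Their 6 genes, Idh1, Idh2, Idh3a, Idh3b, Idh3g and D2hgdh, were chosen by name and matched by Ensembl identifier, and they are 6 of the 45232 gene identifiers counted. All 6 passed the filter on low counts and were among the 17834 genes tested.

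Isocitrate dehydrogenase oxidises isocitrate to 2-oxoglutarate. IDH1 does so in the cytosol and IDH2 in mitochondria, both with NADP, whereas the NAD-dependent IDH3 of the tricarboxylic acid cycle is built from a catalytic alpha subunit and from beta and gamma subunits. Mutant IDH1 and IDH2 instead reduce 2-oxoglutarate to D-2-hydroxyglutarate, which inhibits 2-oxoglutarate-dependent dioxygenases such as TET2, and D2HGDH turns D-2-hydroxyglutarate back into 2-oxoglutarate.

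LSK cells (lineage-negative, Sca-1+, c-Kit+ marrow cells, the compartment of hematopoietic stem cells and early progenitors) were sorted and profiled by RNA-seq in 15 libraries, 3 in each of 5 groups. Mutant cells carried conditional Idh2 R140Q and Jak2 V617F alleles, recombined by Mx1-Cre, an interferon-inducible Cre of blood and some other tissues. They were transplanted in equal mixture with CD45.1 support marrow into lethally irradiated C57BL/6 hosts, and the CD45.2+ LSK cells were recovered. Recipients received vehicle, AG221 (an inhibitor of mutant IDH2) at 40 mg/kg, ruxolitinib (a JAK1 and JAK2 inhibitor) at 60 mg/kg, or both, by gavage for 21 to 28 days, with the last dose 1.5 hours before sacrifice. These values are those of the sample labels, and the methods of the study also give a further AG221 dose without assigning it to these libraries. The fifth group held WT LSK cells of the same strain, whose source is not otherwise described. The counts do not separate mutant from WT transcripts of Idh2, and they measure mRNA, not enzyme activity or metabolite.

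The mutated codon shows how close IDH2 and IDH1 are. The 2 sequences give the reference codon that the R140Q allele changes, codon 140 of Idh2, and the codon aligned with it in Idh1, codon 100, with 15 bases on each side. They are read 5′ to 3′ from transcripts Idh2-201 and Idh1-201 of GENCODE release M21 (GRCm38), and the capitals mark the arginine codon.
Idh2: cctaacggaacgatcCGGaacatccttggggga
Idh1: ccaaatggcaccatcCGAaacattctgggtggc
Translated from those transcripts, IDH1 and IDH2 shared 284 of 411 aligned residues (69.1%). Between the subunits of IDH3 the identity was 50.5% for beta and gamma, 42.8% for alpha and beta and 41.4% for alpha and gamma. The alignments of IDH1 with the IDH3 subunits held 22.2% to 24.5% identical residues.

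The genes lie apart in the genome. On GRCm38, Idh1 is at chr1:65158616-65186500 on the minus strand, Idh2 at chr7:80094846-80115392 on the minus strand, Idh3a at chr9:54586334-54604661 on the plus strand, Idh3b at chr2:130279309-130284547 on the minus strand, Idh3g at chrX:73778963-73786897 on the minus strand and D2hgdh at chr1:93824909-93852348 on the plus strand. Counts of Idh1, Idh2, Idh3a, Idh3b and Idh3g rest on sequence that no other annotated transcript shared over 50 bases. D2hgdh shared 793 of its 4458 windows of 50 bases (17.8%) with the pseudogenes Gm18666 and Gm7889, so its count is less certain. For Idh3b, 0.146% of the exon bases overlapped the antisense gene Nop56, and whether the counting used strand is not stated.

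Total counts per library ran from 18836625 to 32174287 (median 25545779), at which 3 counts, the limit that a count of 0 allows, equalled 0.0957 to 0.157 CPM (the count relative to the library's TMM-normalized total). All 6 genes were far above this limit in every library, the lowest being D2hgdh with 502 counts in AG221 A9. The 11 markers of LSK cells were all above it in each library. Replicate libraries stood further apart than sampling of reads gives (chi-square per degree of freedom 13.7 to 155 over the pairs), and since the labels do not say whether they came from separate mice, p-values measure only the spread between these libraries. Xist was at 455 to 511 CPM in the WT libraries and at 0.365 to 19.5 CPM in the mutant libraries, while the Y-linked Ddx3y was at 0 to 0.101 CPM in WT and at 124 to 206 CPM in the mutant libraries, so sex and genotype cannot be told apart. The WT and combined libraries have names that start with B and all others have names that start with A. What the letter stands for is not given, and it cannot be told apart from the group in comparisons across it. Marker lists of other cell types also moved with the groups. The summed level of 11 neutrophil markers was 3494 to 3856 CPM in WT, 7862 to 12910 with vehicle, 17480 to 20600 with AG221, 12240 to 19440 with ruxolitinib and 4318 to 7752 with combined treatment, with all 11 detected in every library. Over all libraries Mpo was at 2164 to 12390 CPM and Elane at 649.8 to 4821. Ltf, Ngp, Camp, S100a8, S100a9 and Lcn2 each reached at most 186.5 CPM, so the neutrophil sum says little about mature cells. The B-lineage and plasma list went the other way, from 3564 to 11070 CPM in WT and from 231.5 to 344.6 with vehicle, and reached at most 800.9 CPM in a mutant library. In this list Ighm alone ran from 57.69 to 9775 CPM. Mast and basophil markers summed to 108.6 to 197.4 CPM in WT and 732.9 to 1195 with vehicle, megakaryocyte markers to 296 to 392.7 and 1036 to 1176, T and NK markers to 168.2 to 231.9 and 411.8 to 462.8, and monocyte and dendritic markers to 459.9 to 519.7 and 746.2 to 1149. The T and NK sum was mostly Nkg7, at 150.2 to 759.7 CPM over all libraries, and the next highest, Il7r, reached 15.03 CPM. Of the 10 T and NK markers, 8 to 10 were above the limit in WT and 4 to 8 with vehicle. The LSK markers were at 4291 to 4681 CPM in WT and lower, at 2444 to 3812, in the mutant libraries. Erythroid markers were at 1755 to 1915 CPM in WT, at 2200 to 4147 in the other mutant libraries and at 7742 in ruxolitinib A16. Among these, Car2 was at 1068 to 2833 CPM and Car1 at 201.9 to 2410 CPM over all libraries. The part of these markers in the results was not tested. In these bulk samples, fewer cells of a type and less RNA per cell cannot be told apart.

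Idh2 was the most abundant of the 6 in WT cells when levels were set per kilobase of exon. It stood at 154.5 ± 13.5 CPM per kilobase (SD, n = 3), followed by Idh3g at 94.1 ± 10.5, Idh3b at 43.7 ± 2.55, Idh3a at 42.6 ± 4.59, Idh1 at 24.2 ± 2.13 and D2hgdh at 8.39 ± 1.15. The levels of Idh3b and Idh3a differed by less than their spread. In the AG221 group the order was different, with Idh3g at 188.6 ± 32.5 and Idh3a at 105.4 ± 25.8 CPM per kilobase, and with Idh1 (66.6 ± 18.3), Idh2 (58.8 ± 61.4) and Idh3b (57.6 ± 6.40) within their spread of each other. By library, Idh2 was at 21.3, 129.6 and 25.5 CPM per kilobase in AG221 A8, A9 and A10. Idh2 and Idh3g were level with vehicle (134.15 ± 48.6 and 134.43 ± 14.3) and with ruxolitinib (132.5 ± 74.1 and 135.1 ± 11.1). There too Idh3a averaged more than Idh3b, at 76.1 against 50.2 with vehicle and 80.1 against 52.5 with ruxolitinib. D2hgdh was the lowest of the 6 in all 5 groups, between 6.75 ± 0.518 CPM per kilobase with combined treatment and 8.39 in WT.

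**Figure D1:**
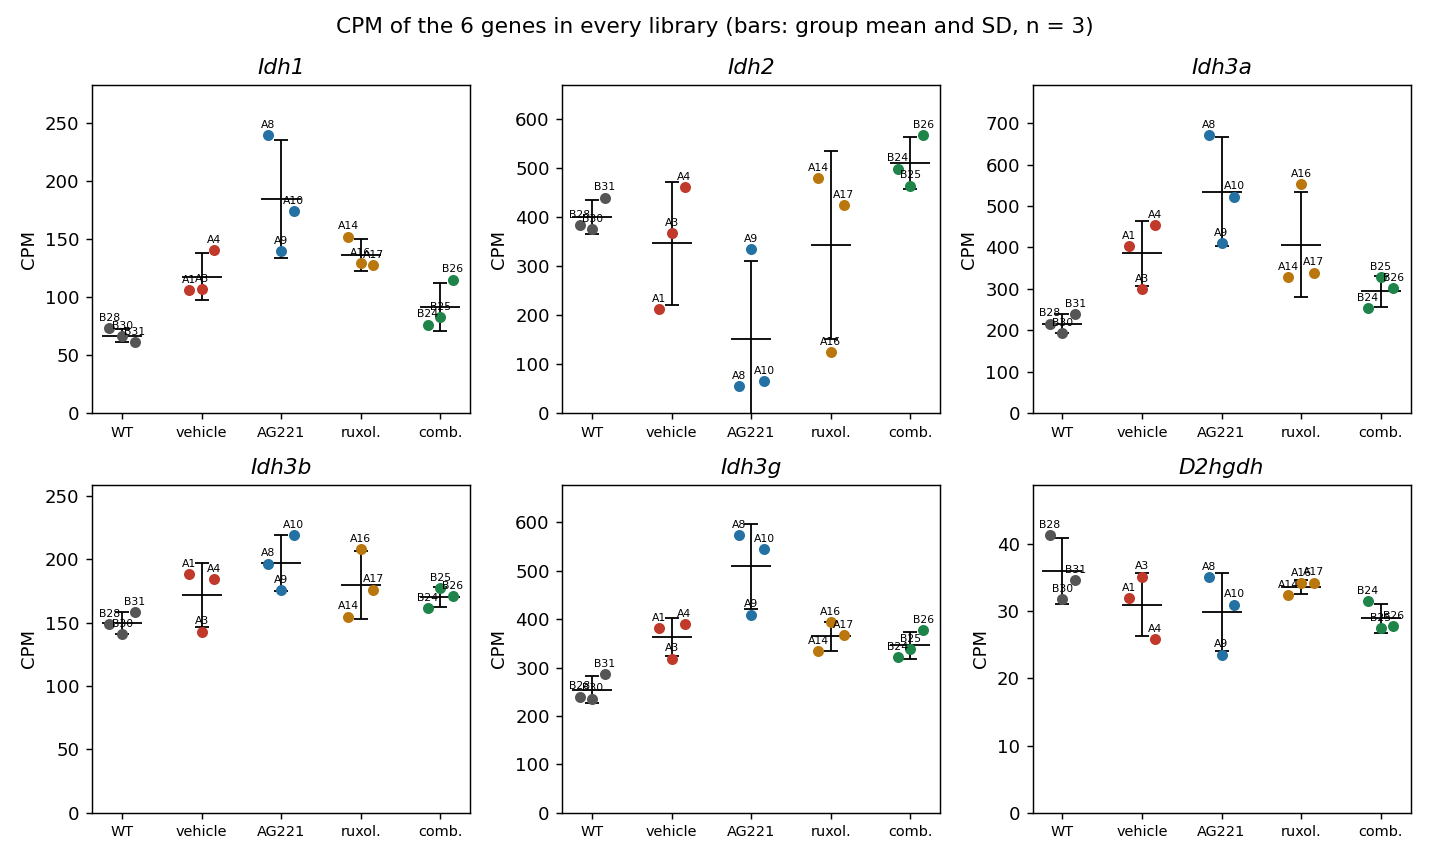
Level of each gene (CPM, vertical axis from 0) in every library of the 5 groups on the horizontal axis, with the replicate name at each point and bars for the group mean and SD (n = 3). The Idh2 points AG221 A8, AG221 A10 and ruxolitinib A16 sit at 55.1, 65.9 and 123.8 CPM, below the other libraries, and the SD of the AG221 group reaches below the axis.

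Idh1, the cytosolic NADP-dependent enzyme, was lowest in WT cells and highest with AG221. Its level was 73.1, 66.4 and 61.3 CPM in the WT libraries B28, B30 and B31, and 105.8, 106.9 and 140.8 CPM in the vehicle libraries A1, A3 and A4. It was 239.9, 139.9 and 174.2 CPM in AG221 A8, A9 and A10, and 152.3, 129.1 and 127.4 CPM in ruxolitinib A14, A16 and A17. With combined treatment it was 76.3, 82.8 and 115.2 CPM in B24, B25 and B26. Every vehicle library was thus above every WT library, and the combined libraries lay below every AG221 library, with B26 alone reaching the vehicle range. Ranges were apart for 56.9% of all genes in vehicle against WT and for 44.6% in combined against AG221. Ordered by mean, Idh1 ran from WT (66.9 ± 5.91 CPM) over combined (91.4 ± 20.8), vehicle (117.8 ± 19.9) and ruxolitinib (136.3 ± 13.9) to AG221 (184.7 ± 50.8), and among the mutant groups the ranges of neighbours in that order overlapped.

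Idh2, the mitochondrial enzyme whose mutant form AG221 inhibits, varied widely within the vehicle, AG221 and ruxolitinib groups. It was 383.5, 376.1 and 440.02 CPM in the WT libraries and 212.5, 367.8 and 461.3 CPM in vehicle A1, A3 and A4. With AG221 it was 55.1, 335.4 and 65.9 CPM in A8, A9 and A10, and with ruxolitinib 480.2, 123.8 and 425 CPM in A14, A16 and A17. With combined treatment it was 499.1, 464.8 and 568 CPM in B24, B25 and B26, above every WT and vehicle library. Combined ranges were apart from WT for 41.6% of all genes and from vehicle for 34.7%. The low values were those of A8, A10 and A16, with A1 between these and the rest, and they rested on 1289 to 2897 counts each. From lowest to highest library Idh2 spanned 10.3-fold, a wider range than Idh1 (3.91-fold), Idh3a (3.49-fold), Idh3g (2.43-fold), D2hgdh (1.76-fold) or Idh3b (1.55-fold). Its SD within groups was 0.848 on the log2 scale, and 11.7% of the genes tested had a larger one.

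The 3 subunits of IDH3 differed in how far they moved. Idh3a, the catalytic subunit, was 216.1, 192.6 and 239.2 CPM in WT, 403.2, 300.1 and 454.8 CPM with vehicle and 671.4, 410.1 and 522.6 CPM with AG221. It was 327.7, 552.7 and 339 CPM with ruxolitinib and 253.4, 327.7 and 301.4 CPM with combined treatment. A8 and A16, low for Idh2, held the 2 highest values of Idh3a. Idh3g, the X-linked gamma subunit, was 240.0, 236.0 and 286.9 CPM in WT, 381.4, 318.7 and 389.2 CPM with vehicle, and 574.3, 409.5 and 544.5 CPM with AG221, every one of which was above the vehicle libraries. It was 333.4, 393.4 and 367.8 CPM with ruxolitinib and 321.5, 338.8 and 376.9 CPM with combined treatment. The share of all genes with AG221 and vehicle ranges apart was not counted. Idh3b, the beta subunit, stayed within 141.2 to 219.4 CPM over all 15 libraries.

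D2hgdh, whose product removes D-2-hydroxyglutarate, was 41.4, 31.8 and 34.6 CPM in WT and 32.0, 35.1 and 25.8 CPM with vehicle. It was 35.1, 23.5 and 30.99 CPM with AG221, 32.4, 34.2 and 34.2 CPM with ruxolitinib and 31.5, 27.5 and 27.8 CPM with combined treatment. Only the combined and WT ranges, and the combined and ruxolitinib ranges, did not overlap. Combined and WT ranges were apart for 41.6% of all genes, and the share for combined and ruxolitinib was not counted.

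Vehicle-treated mutant cells were compared with WT cells, which asks how mutant and WT cells differ, and in this comparison genotype, sex, the letter of the library names and the source of the WT cells cannot be told apart. Idh1, Idh3a and Idh3g were higher in the mutant cells, and Idh2, Idh3b and D2hgdh did not pass the test. Idh1 was higher by 0.82 on the log2 scale (SE 0.207, adjusted p = 0.0125, edgeR quasi-likelihood test with Benjamini-Hochberg adjustment over all genes tested), Idh3a by 0.84 (SE 0.231, adjusted p = 0.0172) and Idh3g by 0.51 (SE 0.146, adjusted p = 0.0193). The difference was 0.20 for Idh3b (95% interval -0.11 to 0.51), -0.21 for D2hgdh (-0.59 to 0.16) and -0.20 for Idh2 (-1.48 to 1.07). So 3 of 6 genes were called, all higher, in a comparison that called 33.3% of all genes tested and 15.4% as higher. The ranges of the same 3 genes did not overlap between the groups, which held for 56.9% of all genes. Without WT B30 none of the 3 passed (adjusted p 0.0525 to 0.0834), without vehicle A4 only Idh1 did, and Idh3g did not pass without vehicle A1 or WT B28 or with upper quartile normalization (adjusted p = 0.105).

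AG221 alone against vehicle gave no call among the 6 genes in edgeR, where 0.987% of all genes were called. At an unadjusted p under 0.05 there were 2, Idh1 (log2 difference 0.65, SE 0.206, adjusted p = 0.0956) and Idh3g (0.49, SE 0.146, adjusted p = 0.0824), and DESeq2 called the same 2, among 2391 genes. Idh2 differed by -1.19 (SE 0.602, adjusted p = 0.233), with A9 inside the vehicle range and A8 and A10 below it. Without A9, edgeR called 3 of the 6, Idh1 at 0.81, Idh2 at -2.53 and Idh3g at 0.62. That fit called 4672 of all genes, against 176 with A9 included. Ruxolitinib alone gave no call in edgeR or DESeq2 and none at an unadjusted p under 0.05, in a comparison that called 0.0168% of all genes, and the 6 log2 differences lay between -0.02 for Idh2 and 0.21 for Idh1.

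Combined treatment against vehicle called none of the 6 genes in edgeR or DESeq2, and none had an unadjusted p under 0.05, while 12.5% of all genes were called. Idh1 differed by -0.37 (95% interval -0.81 to 0.08), Idh3a by -0.39 (-0.89 to 0.10) and Idh2 by 0.56 (-0.72 to 1.84). Idh2 was the 1 gene whose ranges did not overlap, and 34.7% of all genes had ranges apart. Against WT, which shares the combined libraries with that comparison, none was called either in edgeR or DESeq2 (3.25% of all genes in edgeR), and 2 had an unadjusted p under 0.05, Idh1 at 0.45 (adjusted p = 0.191) and Idh3g at 0.44 (adjusted p = 0.0922). The ranges of all 6 genes were apart from WT, the first 5 higher and D2hgdh lower, beside 41.6% of all genes with ranges apart.

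Combined treatment differed from AG221 alone in 4 of the 6 genes, against 33.2% of all genes called (18.9% higher, 14.3% lower). Here the added ruxolitinib and the letter of the library names cannot be told apart. Idh1 differed by -1.01 on the log2 scale (SE 0.208, adjusted p = 0.00422, edgeR), Idh3a differed by -0.86 (SE 0.231, adjusted p = 0.0133) and Idh3g by -0.56 (SE 0.146, adjusted p = 0.0118). Idh2 differed the other way, by 1.75 (SE 0.611, adjusted p = 0.0417), a 3.36-fold higher level. The ranges of these 4 genes did not overlap, as for 44.6% of all genes. The calls rested on AG221 A8 and A10 to different degrees. Without A8, Idh1 and Idh3g passed and Idh2 (1.32) and Idh3a (-0.71) did not, and without combined B24 only Idh1 did. Those fits called 3002 and 3283 of all genes. The fit of only these groups called 3 of the 6, without Idh2 (adjusted p = 0.0807), and upper quartile normalization called 5, with Idh3b at -0.52. Over all genes these called 3788 and 7030, against 5917 with TMM and all groups. The Idh2 call was also lost without A10, B25 or B26 (adjusted p 0.0732 to 0.144), and without A9 the Idh2 difference was 3.08. With A8, A10 and ruxolitinib A16 left out together, an alternative chosen after the values were seen that leaves 1 AG221 library, no gene passed, and the differences were -0.63 for Idh1, 0.59 for Idh2, -0.49 for Idh3a and -0.26 for Idh3g.

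Combined treatment against ruxolitinib alone called none of the 6 in edgeR or DESeq2, beside 12.4% of all genes in edgeR, and 1 had an unadjusted p under 0.05, Idh1 at -0.58 (adjusted p = 0.0905). The interaction, which asks whether both drugs together departed from the sum of their single changes, was called for Idh1 only, at -1.22 (SE 0.292, adjusted p = 0.0362), where 8.42% of all genes were called. Only the combined libraries in it have names that start with B, so the letter and the combination cannot be told apart. Idh3a (-0.94, adjusted p = 0.0761), Idh3g (-0.57, adjusted p = 0.0858) and Idh2 (1.77, adjusted p = 0.168) did not pass in edgeR, whereas DESeq2 called Idh1, Idh3a and Idh3g, among 3729 genes. The Idh1 interaction missed the threshold when any of vehicle A3, vehicle A4, AG221 A8, AG221 A10, combined B24, combined B25 or any ruxolitinib library was left out (adjusted p 0.0517 to 0.0985), and was -0.86 (adjusted p = 0.416) without A8, A10 and A16.

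**Figure D2:**
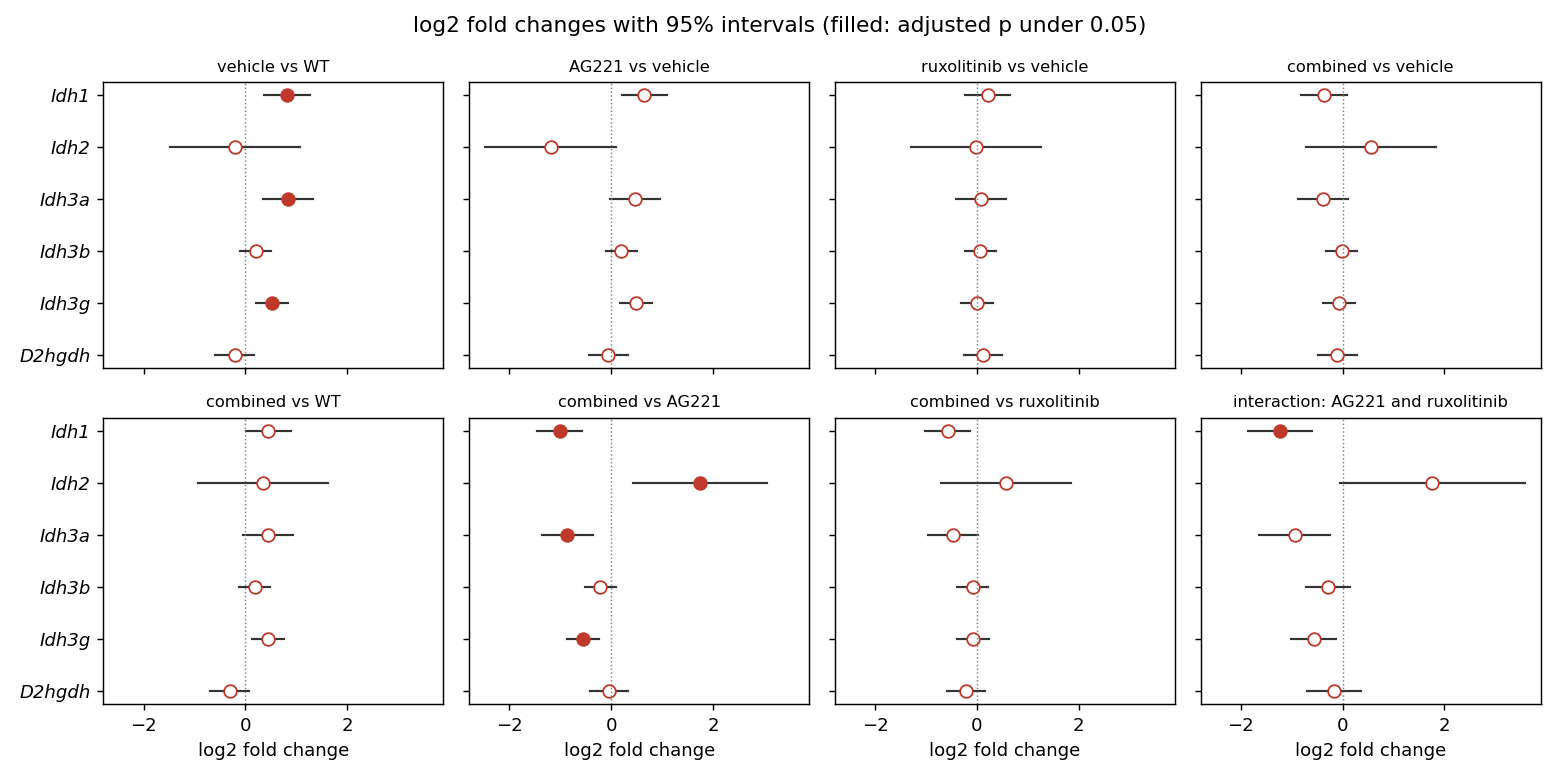
Log2 fold change (horizontal axis) of the 6 genes in the 7 group comparisons and the interaction, with 95% intervals from the edgeR fit of all 15 libraries and filled points for an adjusted p under 0.05. The filled points are Idh1, Idh3a and Idh3g in vehicle against WT, Idh1, Idh2, Idh3a and Idh3g in combined against AG221, and Idh1 in the interaction, and the Idh2 intervals are the widest in every panel.

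Ratios within a library do not depend on scaling between libraries. Per kilobase, the log2 ratio of Idh2 to Idh1 was 2.49, 2.60 and 2.94 in WT and 2.81, 2.59 and 2.40 with combined treatment. It was 1.10, 1.88 and 1.81 with vehicle, 1.76, 0.04 and 1.84 with ruxolitinib, and -2.02, 1.36 and -1.30 with AG221. Idh1 mRNA thus exceeded Idh2 mRNA per length in A8 and A10 alone. The vehicle libraries were all below the WT libraries (mean difference -1.08) and the combined libraries all above the vehicle libraries (0.999), each with p = 0.1 in an exact two-sided permutation test, the smallest p that 3 against 3 libraries allow (0.21 after adjustment over 21 ratio tests). Combined and WT differed by -0.08 (exact p = 0.6). The WT and combined libraries have names that start with B and the vehicle libraries names that start with A. In both comparisons with vehicle the letter and the group therefore cannot be told apart, and against WT neither can sex.

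The log2 ratio of Idh3a to the mean of Idh3b and Idh3g was -0.59 ± 0.0603 in WT (SD, n = 3), -0.12 ± 0.138 with vehicle, -0.0026 ± 0.228 with AG221, -0.11 ± 0.282 with ruxolitinib and -0.47 ± 0.135 with combined treatment. The vehicle and WT ranges did not overlap, nor did the vehicle and combined ranges (differences 0.47 and -0.34, exact permutation p = 0.1 for both). Both comparisons cross the letter of the library names, which cannot be told apart from the group. Idh2 to D2hgdh was 4.21 ± 0.239 in WT and 4.86 ± 0.191 with combined treatment, ranges that did not overlap (exact permutation p = 0.1), and it was 1.38 and 1.81 in A8 and A10 and 2.58 in A16. Of the 21 exact permutation tests of ratios, 10 reached p = 0.1, all with an adjusted p of 0.21.

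**Figure D3:**
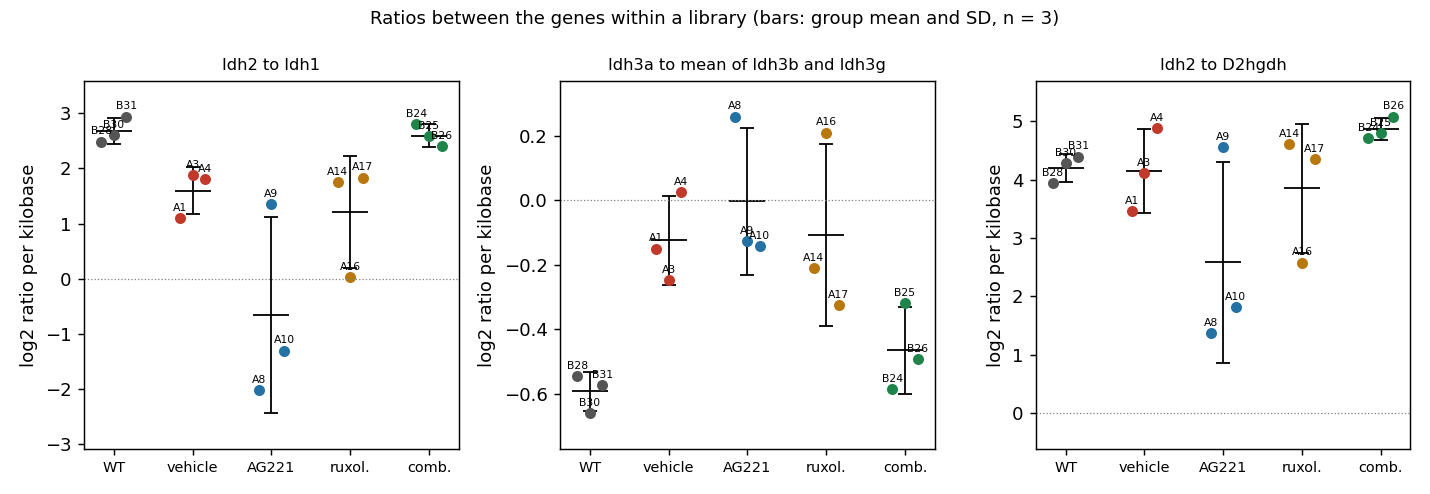
Log2 ratios per kilobase of exon within each library (vertical axis) for Idh2 to Idh1, Idh3a to the mean of Idh3b and Idh3g, and Idh2 to D2hgdh, by group, with bars for the mean and SD (n = 3). The Idh2 to Idh1 ratio lies below 0 in AG221 A8 and A10 and near 0 (0.04) in ruxolitinib A16, and above 1 in the other 12 libraries.

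Idh2 ran against Idh1 and the 3 subunits of IDH3 over the libraries. Over the 15 libraries, which share groups and depth, log2 CPM of Idh3a correlated with that of Idh3g at r = 0.926, of Idh1 at 0.878 and of Idh3b at 0.872, and with that of Idh2 at -0.75. Idh2 was at -0.723 with Idh3g, -0.709 with Idh3b and -0.631 with Idh1. With group means subtracted, Idh2 was at -0.696 with Idh3a, -0.644 with Idh3g, -0.634 with Idh3b and -0.246 with Idh1, and Idh3a and Idh1 were at 0.437. D2hgdh stood between -0.303 and -0.198 with each of the other 5 over all libraries. With group means subtracted it was at -0.613 with Idh2 and at 0.0186 to 0.236 with the other 4. The genes most like Idh3a were Cct7, a subunit of the cytosolic chaperonin (r = 0.998), Rcc1 (0.994) and Abcf2 (0.993), and those most like Idh3g were Psma1 (0.993), Tecr (0.992) and Psmb1 (0.991), of which Psma1 and Psmb1 encode proteasome subunits. Idh1 was most like Fcgr2b, an inhibitory Fc receptor (0.976), Atp6ap2 (0.973) and Anxa3 (0.972), Idh3b most like Cfdp1 (0.949), Fars2 (0.949) and 1700021F05Rik (0.948), and D2hgdh most like Kit, the stem cell factor receptor (0.892), Rbm5 (0.887) and Zfp941 (0.865).

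Idh2 shared its course with many genes. Its closest were Ostf1 (0.995), Fez2 (0.995) and Mfsd1 (0.994), and after group means were subtracted Mvb12a (0.996), Ptpn1 (0.996), Slc7a6os (0.995), Ostf1 (0.995) and Pkmyt1 (0.994). In all, 1164 genes (6.53% of those tested) had r over 0.9 with Idh2, and 1220 (6.84%) had it after group means were subtracted. The same counts were 1265 and 620 for Idh3a and 1181 and 285 for Idh3g. AG221 A8 and A10 and ruxolitinib A16 had the lowest correlation of gene residuals with GC content (-0.268, -0.207 and -0.131, against -0.057 to 0.201 in the other 12), and the exons of Idh2 have the highest GC content of the 6 genes (55.9%, against 44.0% to 52.9%). With GC content offsets in the fit, Idh2 differed by 1.55 in combined against AG221 and by -1.15 in AG221 against vehicle, and no call of Idh2 changed. GC content was 48.5% for Ostf1, 49.7% for Fez2 and 45.5% for Mfsd1, the closest to Idh2. Of those closest within groups, it was 58.8% for Mvb12a, 55.5% for Ptpn1, 49.3% for Slc7a6os and 58.7% for Pkmyt1. The genes most like Idh3a, which ran against Idh2, were at 49.2% (Cct7), 55.1% (Rcc1) and 53.3% (Abcf2). Those most like Idh3g were at 45.3% (Psma1), 56.9% (Tecr) and 45.3% (Psmb1). The part of GC content in the levels of Idh2 was not tested.

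The genes around the 6 enzymes are described from lists of 17 enzymes of isocitrate and 2-oxoglutarate, 9 genes of 2-hydroxyglutarate handling and 11 genes of NADPH supply. The last list also holds NAD kinases and folate enzymes, and not every member makes NADPH itself. In vehicle against WT, 10 of the 17 were higher, 2 lower and 5 not called, with a median log2 difference of 0.59 beside -0.09 for all genes tested. Of all genes, 33.3% were called there and 15.4% were higher, which is also the background of the next 2 lists. The smallest adjusted p belonged to Psat1, a serine synthesis aminotransferase that yields 2-oxoglutarate (1.17, adjusted p = 0.00464), Got2, the mitochondrial aspartate aminotransferase (0.75, adjusted p = 0.00714) and Ogdh, of the 2-oxoglutarate dehydrogenase complex (0.68, adjusted p = 0.0104). The 2 that were lower, named after their values were seen, were Glud1, glutamate dehydrogenase (-0.92, 38.5 CPM on average with vehicle), and Ogdhl, which averaged 0.172 CPM with vehicle. Of the 9 genes, 5 were higher and none lower (median 0.54), with Etfb (0.76, adjusted p = 0.0045), which passes electrons on from dehydrogenases such as D2HGDH, Ldha (1.09, adjusted p = 0.0045) and Mdh2 (0.81, adjusted p = 0.00555) first. Of the 11 genes of NADPH supply, 3 were higher and 2 lower (median 0.41). They were Mthfd2, of mitochondrial folate metabolism (1.75, adjusted p = 0.00475), Pgd (0.69, adjusted p = 0.00622) and G6pdx (0.88, adjusted p = 0.00761), both of the pentose phosphate pathway, against the malic enzymes Me1 and Me3, which averaged 0.412 and 0.099 CPM with vehicle and were named after their values were seen.

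In combined against vehicle, where 12.5% of all genes were called, the calls were 3 of the 17, 1 of the 9 and 2 of the 11. Here the treatment and the letter of the library names cannot be told apart. Glud1 was higher by 1.78 (SE 0.324, adjusted p = 0.00426), at 91.1 to 163.7 CPM in the combined libraries against 32.8 to 44.2 CPM in the vehicle libraries. Bcat1, a branched-chain aminotransferase, differed by -1.94 (adjusted p = 0.0395), and 14 of the 17 were not called (list median -0.24, all genes 0.04). Adhfe1, a transhydrogenase that can form D-2-hydroxyglutarate, was the 1 of 9 called, at -2.02 (adjusted p = 0.04), from levels of 0.376 to 0.638 CPM with vehicle and 0.035 to 0.185 CPM with combined treatment, near the limit of 3 counts. Of the 11 genes of NADPH supply, Nadk2, the mitochondrial NAD kinase, was higher (0.82, adjusted p = 0.0298) and Pgd was lower (-0.53, adjusted p = 0.0282).

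Of the 37 list genes, 15 had r over 0.9 with Idh3a (40.5%, against 7.09% of all genes), 11 with Idh3g (29.7%, against 6.62%), 6 with Idh1 (16.2%, against 1.44%) and none with Idh3b or D2hgdh. Idh2 had 3 (8.11%, against 6.53%), which were Slc25a1, the mitochondrial citrate carrier (r = 0.931), Me2 (0.928) and Mthfd1l (0.905), named after their values were seen. List genes and all genes tested were not matched for level, so these shares are not like for like, and why they differ was not tested. Slc25a1 was at 7.95 and 8.40 CPM in A8 and A10 and at 21.0 CPM in A16, and vehicle A1 was level with A16 at 21.1 CPM. It was 36.96 CPM in A9, 54.05 to 59.9 CPM in the remaining vehicle and ruxolitinib libraries and 85.8 to 145.3 CPM in the WT and combined libraries. The WT and combined libraries are those with names that start with B, so letter and group cannot be told apart.

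**Figure D4:**
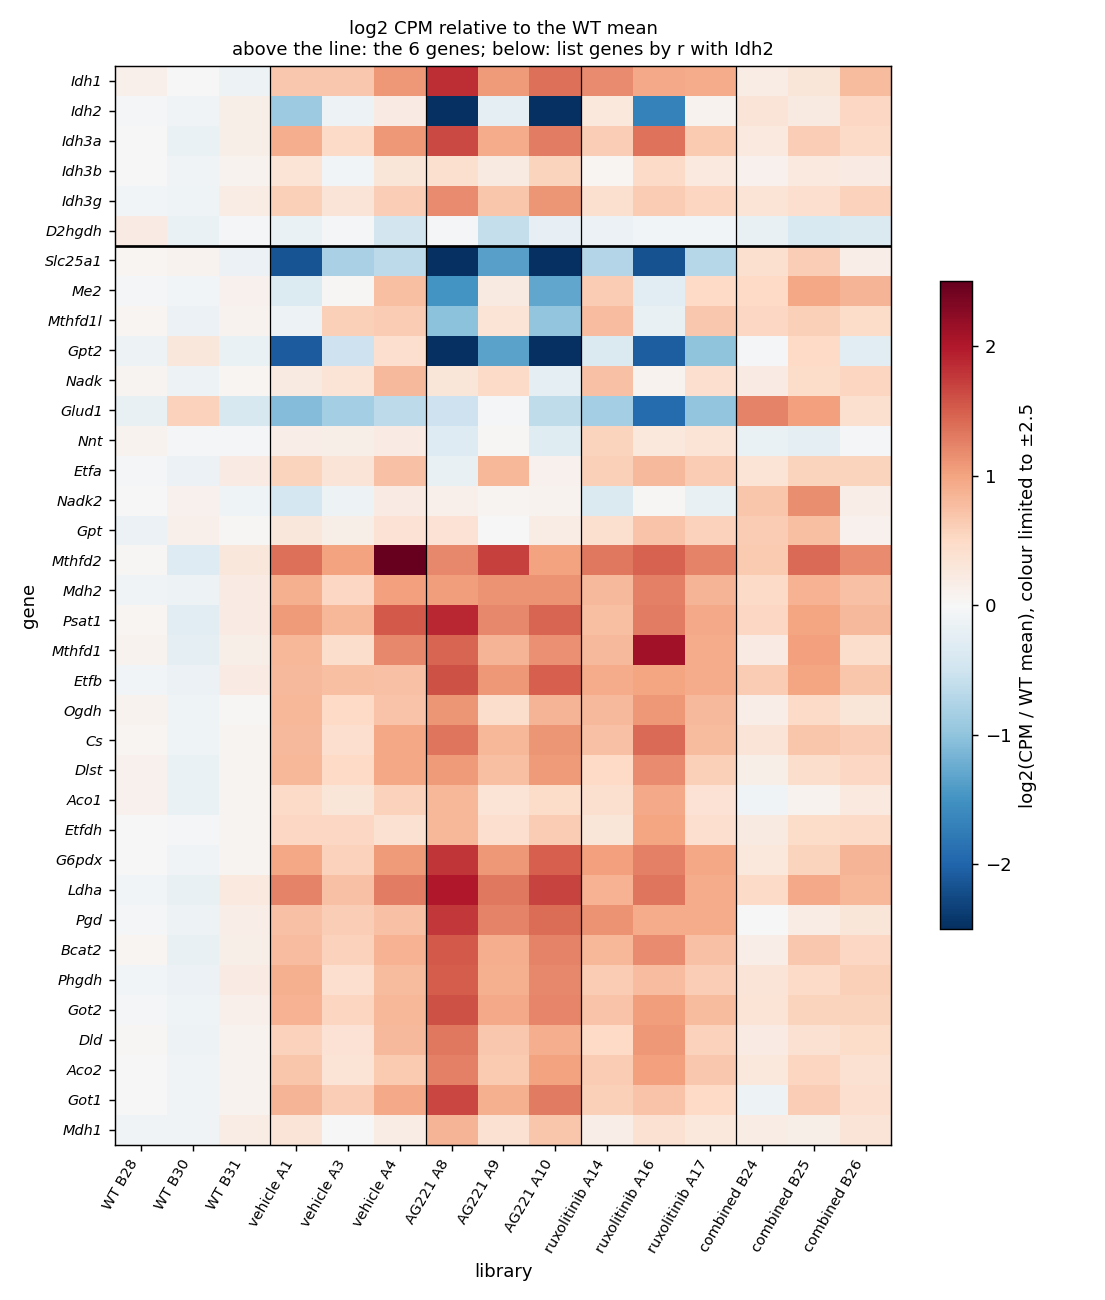
Log2 of CPM over the WT mean (colour, limited to ±2.5) for the 6 genes above the line and, below it, 30 of the 32 list genes at 1 CPM or more in every library, ordered by correlation with Idh2, in the 15 libraries on the horizontal axis. Idh2, Slc25a1 and Gpt2 are darkest blue in AG221 A8 and A10, where Idh1, Idh3a and Idh3g and the lowest rows are red.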

How the data were processed

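Whole-transcript libraries of sorted LSK cells were made with SMARTer amplification. The authors deposited raw counts of reads per Ensembl gene, made with STAR 2.5.1a on mm10 (submitters' processing notes, which also name DESeq2 1.6.3), and a normalized table that was not used here. The Ensembl release and the strand setting are not given in the sources used here. Reads carry no molecular identifiers, so floors cover counting error only.

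Symbols, positions and merged exon length came from GENCODE M21 (GRCm38), and GC content is that of all annotated transcripts of a gene, weighted by their length. Genes passing edgeR's filterByExpr were normalized by TMM and tested by the quasi-likelihood test (edgeR 4.0.16, limma 3.58.1, R 4.3.3) in 1 fit of 15 libraries with 5 groups and no covariates. Calls used an adjusted p (Benjamini-Hochberg) under 0.05. Standard errors are the log2 fold change over the square root of F. Correlations used log2 CPM with a prior count of 2. In data simulated for vehicle against WT over 17232 genes, the fit recovered 90% of 100 log2 changes of 2 and 40% of 100 log2 changes of 1, with 7 false calls. Only these genes were changed, all above a minimum mean level, and genes were simulated independently. The real comparison called 33.3% of all genes, so these rates do not give its power.

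Named genes are the 6 members, the 3 list genes of smallest adjusted p in vehicle against WT and in combined against vehicle, and the 3 genes most like each member (for Idh2 also 5 within groups), with exceptions stated. The genes and lists were chosen with earlier results of these data known. Alternatives were other normalizations, filters, GC offsets, fits of only the groups compared, DESeq2 1.42.0, a prior count of 0.5 and leaving out libraries. Single results of 2 list genes are not reported here.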

Additional observations from a re-analysis of the deposited data

Results flagged for a closer look

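In the fit of all 15 libraries, the Idh1 change with AG221 passed the test of a difference between recipients with and without ruxolitinib. The interaction was -1.22 on the log2 scale (SE 0.292, adjusted p = 0.0362, edgeR quasi-likelihood test), with a difference of 0.65 for AG221 against vehicle and of -0.58 for combined treatment against ruxolitinib, neither of which passed its own test. The call was lost in the fit of only the 4 groups compared (-1.19, adjusted p = 0.0611) and without any 1 of 9 of the 12 libraries concerned (adjusted p 0.0517 to 0.0985). Of the 4 groups, only the combined one has library names that start with B, so the letter and the combination cannot be told apart.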

How the results depend on the processing

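No paired analysis was possible because the groups share no replicate numbers. Of 690 log2 differences of the 6 genes under alternatives, 608 kept their direction and side of the threshold, 32 lost a call, 17 gained one and 33 reversed, and none of the 115 for Idh1 reversed. The causes of these changes were not tested.

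With upper quartile normalization, 738 genes were called for AG221 against vehicle and 3124 in the interaction, 3 of the 6 among the latter. With at least 10 counts in every library, the calls were 3406 for vehicle against WT, 906 (1 of the 6) for AG221 against vehicle, 274 for combined against WT and 2485 (3 of the 6) in the interaction. With every gene of at least 1 count, 17 were called for ruxolitinib against vehicle. GC offsets gave 366 for AG221 against vehicle. Fits of only the groups compared gave 0 for AG221 and 0 for ruxolitinib against vehicle (176 and 3 with all groups, 2391 and 50 by DESeq2), 1788 for combined against WT, 3788 for combined against AG221 and 167 (0 of the 6) in the interaction. DESeq2 called 2 of the 6 for AG221 against vehicle, 1855 genes for combined against WT and 3729 (3 of the 6) in the interaction. Without AG221 A8 and A10 and ruxolitinib A16, chosen after the values were seen, 3 genes were called for AG221 against vehicle, 0 for ruxolitinib against vehicle, 109 (0 of the 6) for combined against AG221 and 24 (0 of the 6) in the interaction.

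Reversals were of differences that passed no test. D2hgdh in AG221 against vehicle was 0.0028 with RLE, 0.15 with upper quartile normalization and 0.052 with GC offsets, Idh3b in combined against WT was -0.017 with upper quartile normalization, and Idh3g in ruxolitinib against vehicle was -0.024 with GC offsets and -0.0045 in the fit of only those groups. Without A8, A10 and A16, ruxolitinib against vehicle was 0.37 for Idh2, -0.22 for Idh3a, -0.063 for Idh3b and -0.059 for Idh3g, D2hgdh was 0.28 in combined against AG221, Idh3b was 0.013 in combined against ruxolitinib, and the interaction was 0.0014 for Idh3b and 0.18 for D2hgdh.

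Leaving out each library in turn, the 6 genes gave 0 to 3 calls for vehicle against WT, 0 to 3 for AG221 against vehicle, 1 to 4 for combined against AG221, 0 to 1 for combined against ruxolitinib and 0 to 4 in the interaction. Over all genes the calls ran from 1901 to 5907 for vehicle against WT, 0 to 4672 for AG221 and 0 to 9 for ruxolitinib against vehicle, 1006 to 1965 for combined against vehicle, 88 to 415 against WT, 3002 to 8140 against AG221, 1137 to 1899 against ruxolitinib and 44 to 6087 in the interaction. The differences that changed sign ran from -0.44 to 0.073 for Idh2 in vehicle against WT and from -0.17 to 0.084 for D2hgdh in AG221 against vehicle. In ruxolitinib against vehicle they ran from -0.34 to 0.38 for Idh2, -0.21 to 0.21 for Idh3a, -0.055 to 0.16 for Idh3b, -0.082 to 0.064 for Idh3g and -0.00043 to 0.21 for D2hgdh. Idh3b ran from -0.13 to 0.053 in combined against vehicle and from -0.18 to 0.0055 against ruxolitinib, and D2hgdh from -0.19 to 0.035 in combined against AG221. The log2 ratio of Idh2 to Idh1 ran from -0.70 to 0.20 in ruxolitinib against vehicle and from -0.18 to 0.053 in combined against WT. Idh3a to the mean of Idh3b and Idh3g ran from -0.010 to 0.20 in AG221 against vehicle and from -0.14 to 0.12 in ruxolitinib against vehicle. Idh2 to D2hgdh ran from -0.42 to 0.29 in vehicle against WT and from -0.68 to 0.34 in ruxolitinib against vehicle.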
